A study of Mus musculus with 6 samples.

Results

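Isolated T3-only sites are places in mouse liver chromatin where thyroid hormone receptor β1 (TRβ1) was called as bound after injection of hormone, with no TRβ1 peak called anywhere nearby without it. They were chosen by peak position in the TRb T3 list, on chromosomes 1 to 19, as the peaks whose midpoint lay more than 10 kb from every peak midpoint of the TRb PTU list. A block of chromosome 4 from 59900000 to 61800000 was left out. The rule kept 6739 of the 45238 TRb T3 peaks it was applied to, or 14.9% (exact 95% binomial interval 14.6 to 15.2%). These are 6739 of the 46092 peaks in the whole TRb T3 list. Because the rule compares the 2 lists, the number of members and their distance from TRb PTU peaks describe the choice and are no finding.

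The study profiled TRβ1 binding by ChIP-seq, which sequences the DNA recovered with a captured protein. Heterozygous mice expressing BirA, a biotin ligase, were 9 to 10 weeks old and ate for 3 weeks a diet with propylthiouracil (PTU), which blocks the making of thyroid hormone. An adenovirus given through the tail vein then delivered GFP alone or GFP with biotinylated TRβ1, and streptavidin agarose captured the tagged receptor. The mice were injected for 4 days with saline (groups GFP PTU and TRb PTU) or with triiodothyronine (T3, group TRb T3), so the TRβ1 groups share the diet, the virus and the BirA allele and differ in the injection. The receptor measured was thus one delivered by virus to PTU-fed animals. There was 1 library per group, the number of animals behind it is unknown here, and no difference between the groups can be set against the spread between animals. Depth is unknown, as the lists give no reads, and they carry no expression values against which the liver label could be checked. Positions are on mm9. Intervals are exact 95% binomial intervals over peaks and cover counting error only. They treat peaks as independent, which neighbouring peaks are not.

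As background, TRβ1 is a nuclear receptor that usually sits on DNA as a pair with the retinoid X receptor, at repeats of a short half-site. Without hormone it can stay bound and recruit corepressor complexes with histone deacetylases. Hormone changes the shape of its ligand-binding domain, so that corepressors leave and coactivators are recruited.

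Most isolated T3-only sites were low-scored and narrow, with a minority of high-scored ones. The score is a value that the authors' peak caller gave to every peak, and it was read within a list only. Members had a median score of 15.92 (quartiles 9.91 and 28.4, range 2.02 to 342.89), which corresponds to percentile 36.5 of the TRb T3 list. TRb T3 peaks that shared at least 1 bp with a TRb PTU peak had a median of 30.39 (quartiles 15.41 and 62.54). T3-only peaks that lay within 10 kb of a TRb PTU midpoint had a median of 14.5, slightly under that of the isolated ones. Of the members, 2329 scored at or above the median of the TRb T3 list (34.6%, interval 33.4 to 35.7%), where 50.2% of all TRb T3 peaks examined did. Their median width was 172 bp (quartiles 147 and 213, range 132 to 1529), against 212 bp for shared peaks and 169 bp for T3-only peaks within 10 kb of a TRb PTU midpoint. The least width in the list, 132 bp, was that of 513 members (7.61%), and 175 members (2.60%) were 400 bp or wider. Width rose with score across the 6739 members, with a Spearman coefficient of 0.63. Score and width come from the same reads of 1 library, so this is a description. Low scores and narrow peaks were not particular to members. Isolated PTU-only peaks, chosen by the same rule with the lists exchanged, had a median at percentile 32.8 of the TRb PTU list. Of these, 29.0% scored at or above the median of that list, and their median width was 182 bp, against 240 bp for its shared peaks.

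Members were slightly narrower than shared peaks of the same score class in most classes. The nearest comparison set was the 6206 solitary shared peaks, meaning TRb T3 peaks that overlapped a TRb PTU peak and had no second TRb PTU midpoint within 10 kb. Their median width was 208 bp and their median score 30.24. Over 10 equal score classes of the TRb T3 list, members had the smaller median width in 9, and in the fifth both sets had 176 bp. The medians of members and solitary shared peaks were 144 and 156 bp in the lowest class, 163 and 166 bp in the fourth, 242 and 247 bp in the ninth and 287.5 and 313 bp in the highest. Scores still differed within a class, from 91.3 to 579.09 in the highest, and their part in these gaps was not tested. In the TRb PTU list, isolated PTU-only and solitary shared peaks had medians of 260 and 286.5 bp in the ninth class and 294 and 332 bp in the highest. The isolated ones were the wider in the third class (161 and 158 bp) and the fourth (173 and 171 bp).

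The share of isolated peaks fell from the low to the high scores. Among the 4523 TRb T3 peaks of the lowest score decile, 984 were isolated (21.8%, interval 20.6 to 22.99%). In the fifth decile 731 of 4524 were (16.2%, interval 15.1 to 17.3%). In the highest decile, with scores of 91.3 and above, 212 of 4524 were (4.69%, interval 4.09 to 5.34%). The same rule turned around gave 9775 isolated PTU-only peaks among 51239 TRb PTU peaks (19.1%). In that list 30.1% of the lowest decile and 2.48% of the highest (127 of 5124, interval 2.07 to 2.94%) were isolated. The isolated share was thus higher in TRb PTU over its 8 lower deciles and higher in TRb T3 over the upper 2, although in the eighth decile the intervals overlapped (10.1% in TRb T3, interval 9.20 to 10.97%, and 10.6% in TRb PTU, interval 9.79 to 11.5%). Each list was ranked on its own, and the part of depth and of peak calling in this contrast was not tested.

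**Figure D1:**
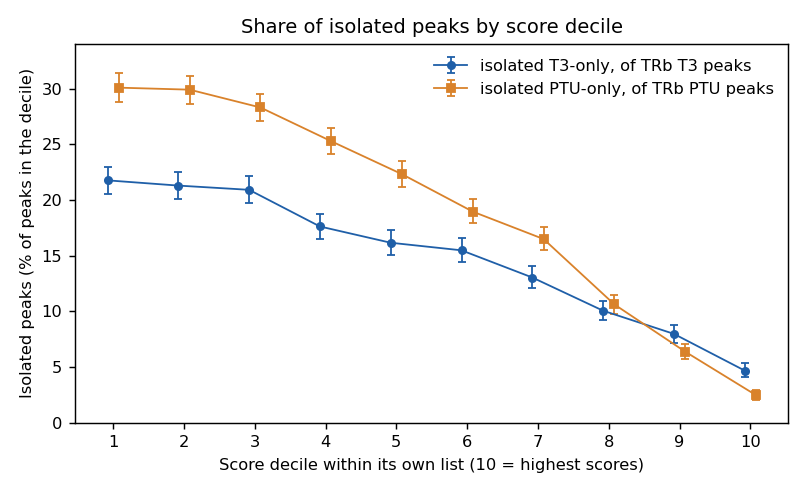
Share of peaks that were isolated (vertical axis, percent) in each score decile of its own list (horizontal axis, 10 is the highest), for TRb T3 (blue circles) and TRb PTU (orange squares), with exact 95% binomial intervals as bars. The TRb T3 share went from 21.8% in the lowest decile to 4.69% in the highest, and the TRb PTU share from 30.1 to 2.48%.

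The 12 highest-scored members lay on 9 chromosomes. They were named with chromosome 18 set aside, where 0 of 282 members scored as high as the twelfth. The first was at chr12:14216623-14217105 (483 bp, score 342.89). Its nearest TRb PTU midpoint was 140951 bp away, no other TRb T3 peak lay within 10 kb, and 6 lay within 100 kb, all of them members. The second was at chr1:187794530-187795135 (606 bp, score 299.73), with a TRb PTU midpoint 63.7 kb away and 2 further TRb T3 peaks within 10 kb. The third, at chr12:43329257-43329580 (324 bp, score 287.96), stood almost alone. Its nearest TRb T3 neighbour was 92.6 kb away, its nearest TRb PTU midpoint 207.4 kb away, and 1 TRb PTU midpoint lay within 500 kb. In contrast, the fourth, at chr19:57007352-57007892 (541 bp, score 274.41), had 8 other TRb T3 peaks within 10 kb, the nearest 557.5 bp from it.

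Chromosome 16 gave the next 2 members. The site at chr16:44017801-44018197 (score 267.69) lay 17951 bp from a TRb PTU midpoint and had 2 TRb T3 neighbours within 10 kb. The site at chr16:76971532-76971833 (score 264.91) lay 32613 bp from a TRb PTU midpoint and had 0. The site at chr2:168172549-168172904 (score 262.4) was in a region otherwise rich in unliganded binding. It had 74 TRb PTU midpoints within 500 kb, yet none within 100 kb, the nearest being 139767 bp away. The site at chr3:122072798-122073738 (score 262.32) was the third-widest member, at 941 bp, with 58 TRb PTU midpoints within 500 kb and 13 within 100 kb.

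The last 4 of the 12 scored between 251.11 and 254.62. They lay at chr14:64718742-64719105, chr4:11624193-11624557, chr19:21481369-21481669 and chr7:119246289-119246883. Their nearest TRb PTU midpoints were 46.3, 84.4, 32.6 and 24.4 kb away, and each had from 1 to 5 other TRb T3 peaks within 10 kb. Of the 12 strongest members, 9 thus had TRb T3 company within 10 kb and 3 had none. Such company was found for 73.7% of all TRb T3 peaks examined and 62.3% of members in the top score decile. For several of the 9 the nearest neighbour was under 1 kb away, as at 387 bp for the first site on chromosome 16. The 2 widest members scored lower than these. They measured 1529 bp at chr6:112174461-112175989 (score 58.6) and 1091 bp at chr9:35043792-35044882 (score 66.73).

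Many members lay far beyond the distance that the rule asked for, as did many isolated PTU-only peaks under the rule turned around. Those had a median distance of 26124 bp (quartiles 15710.5 and 49986 bp) to the nearest TRb T3 midpoint. For members, the median distance to the nearest TRb PTU midpoint was 29596 bp (quartiles 16484 and 69810 bp). It was between 10 and 20 kb for 2259 members (33.5%), between 20 and 50 kb for 2242, between 50 and 100 kb for 995, between 100 and 200 kb for 658, between 200 and 500 kb for 398 and over 500 kb for 187 (2.78%). Median scores lay between 13 and 16.04 in these 6 distance classes. The median was 15.96 at 10 to 20 kb, 15.12 at 50 to 100 kb and 13 beyond 500 kb, and peaks of the top score decile made up 2.79% (interval 2.15 to 3.55%), 2.92% (interval 1.96 to 4.16%) and 4.81% (interval 2.22 to 8.94%) of these classes, with intervals that overlapped. The 3 farthest members lay on chromosome 6 at 62523660 to 62523820 (score 7.56) and 62570699 to 62570839 (score 10.19), and on chromosome 5 at 58106296 to 58106439 (score 12.44). Their nearest TRb PTU midpoints were 2469, 2422 and 2328 kb away, and all 3 scored in the lower part of the list.

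The threshold itself divided similar peaks. Just inside it lay chr7:119957191-119957520 (10000.5 bp from a TRb PTU midpoint, score 13.96), chr10:60835413-60835554 (10001 bp, score 21.2) and chr1:62459673-62459822 (10001.5 bp, score 9.1). Just outside were chr11:85462431-85462666 (10000 bp, score 17.37), chr13:9026506-9026716 (9996 bp, score 29.09) and chr16:76284204-76284335 (9994 bp, score 4.34). The number of members followed the distance chosen, with 9172 beyond 5 kb, 4480 beyond 20 kb and 2238 beyond 50 kb.

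Isolation from the TRb PTU list did not mean isolation within the TRb T3 list. Another TRb T3 peak lay within 10 kb of 2617 members (38.8%, interval 37.7 to 40.0%), against 73.7% of all TRb T3 peaks examined. The lower share follows in part from the rule, since a neighbour that overlaps a TRb PTU peak would nearly always place a TRb PTU midpoint too close. Of the 4065 neighbours counted around members, 3592 were members themselves (88.4%), 467 were T3-only peaks within 10 kb of a TRb PTU midpoint and 6 were shared. Solitary shared peaks are limited alike only in part. A TRb T3 neighbour within 10 kb was found for 2050 of 6206 of them (33.0%, interval 31.9 to 34.2%), a lower share than for members. However, members can be neighbours of each other, and 2405 had another member within 10 kb. A second shared peak near a solitary shared one would mostly bring a second TRb PTU midpoint and so exclude both. How much of the difference comes from this was not tested. Peaks that are each other's neighbours are not independent, so these intervals are too narrow. Isolated PTU-only peaks had a neighbour in their own list in 4589 of 9775 cases (46.9%, interval 45.9 to 47.9%), where 76.2% of all TRb PTU peaks examined did. Counting neighbours more than 1 kb away alone, so that pieces of 1 broad site weigh less, the shares were 30.9% for members, 26.1% for solitary shared and 36.2% for isolated PTU-only peaks.

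**Figure D2:**
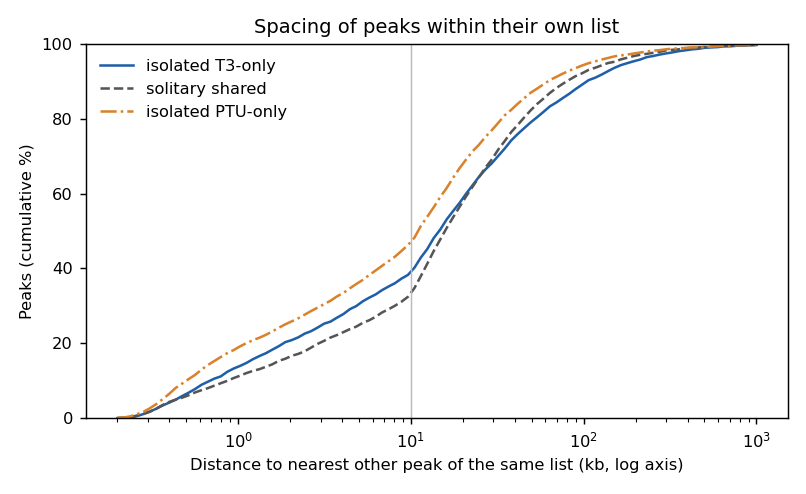
Cumulative percentage of peaks (vertical axis) whose nearest other peak of the same list lay within the distance on the horizontal axis (kb, log axis), for isolated T3-only (blue), solitary shared (grey, dashed) and isolated PTU-only peaks (orange, dash-dotted). At 10 kb (vertical line) the curves stand at 38.8, 33.0 and 46.9%, and all bend there because the distance used to choose the peaks is also 10 kb.

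At the other extreme, 4122 members (61.2%) had no TRb T3 neighbour within 10 kb and 715 (10.6%) had none within 100 kb. Within 97992 bp, 89.15% of members, 92.18% of solitary shared and 94.26% of isolated PTU-only peaks had a neighbour in their own list. Within 50 kb this held for 79.1% of members and 93.2% of all TRb T3 peaks examined. No other peak of either TRβ1 list lay within 100 kb of 529 members (7.85%, interval 7.22 to 8.52%), a count that was not made for other sets. Such lone sites included high-scored ones. A peak at chr14:108740789-108741002 (214 bp, score 101.9) lay 1266 kb from the next TRb T3 peak and 1886 kb from the next TRb PTU midpoint. Peaks at chr8:40987452-40987753 (302 bp, score 95.98) and chr11:34123071-34123692 (622 bp, score 118.32) were at least 340 kb from any other peak of either list. These 3 were the most remote among members of the top score decile, and they were picked after their values had been seen.

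Company was more frequent around high-scored members. In the lowest score decile 337 of 984 members had a TRb T3 neighbour within 10 kb (34.2%, interval 31.3 to 37.3%). The share was 43.4% in the seventh decile, 53.2% in the ninth and 62.3% (132 of 212, interval 55.4 to 68.8%) in the highest. The value for the highest decile was 40.0% (interval 29.8 to 50.9%) among TRb T3 peaks at or above the median score, with deciles taken anew. Solitary shared peaks rose as well, from 25.4% (interval 21.2 to 29.9%) to 48.2% (448 of 930, interval 44.9 to 51.4%), and stayed below members in each decile, with intervals that overlapped in the third decile alone. Among isolated PTU-only peaks the share ran from 46.2% to 57.5% (73 of 127, interval 48.4 to 66.2%) in deciles of their own list. With neighbours more than 1 kb away alone, members went from 26.7% to 51.4% (109 of 212, interval 44.5 to 58.3%) and solitary shared peaks from 20.1% to 39.0% (363 of 930, interval 35.9 to 42.2%), with intervals that overlapped in deciles 1, 3 and 8. The part of calls at the flanks of a strong peak was not tested beyond this. Peaks that are each other's neighbours are counted in pairs, so all these intervals are too narrow. How much of the difference comes from the way the sets were chosen was not tested either.

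**Figure D3:**
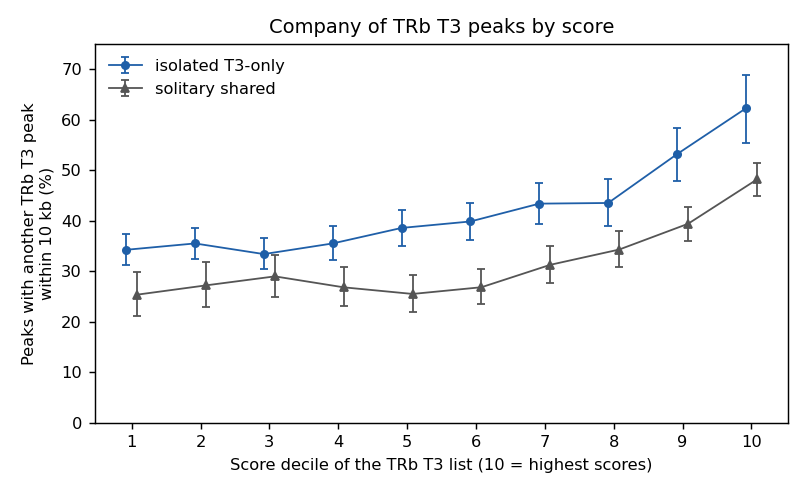
Percentage of peaks with another TRb T3 peak within 10 kb (vertical axis) by score decile of the TRb T3 list (horizontal axis, 10 is the highest), for isolated T3-only (blue circles) and solitary shared peaks (grey triangles), with exact 95% binomial intervals as bars. Members stand at 34.2% in the lowest decile and 62.3% in the highest, and solitary shared peaks at 25.4 and 48.2%.

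Members with midpoints up to 10 kb apart were linked into chains. The 6739 members formed 5358 chains, of which 4334 were single peaks, 768 were pairs, 238 held 3 or 4 members and 18 held 5 or more. The longest held 10 members within 20639 bp, at chr19:57000458-57021096. The next was at chr2:92567533-92592618, with 7 members in 25086 bp and scores of 4.71 to 111.2. A chain of 6 at chr7:119237721-119246883 had a median score of 44.08 and ended with the twelfth-strongest member. Another chain of 6, at chr7:71613202-71630031, was weak throughout, with scores from 3.94 to 9.84. Chains thus ranged from a strong lead site with weaker companions to groups of low scores. Chains were not particular to members. Isolated PTU-only peaks, linked in the same way, formed 7295 chains from 9775 peaks. Of these chains 5571 were single peaks, 1216 were pairs, 454 held 3 or 4 peaks and 54 held 5 or more. The largest had 12 peaks. Linked peaks numbered 4204 of the 9775, a larger share than the 2405 of 6739 among members. How far this follows from the larger set was not tested.

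Stretches free of TRb PTU peaks held up to 17 members each. Members occupied 3943 stretches between consecutive TRb PTU midpoints. In 2459 of these the member was the only one, 819 held 2, 591 held 3 to 5 and 74 held 6 or more. The fullest was on chromosome 19, between TRb PTU midpoints near 56949457 and 57228481, with 17 members in 279.0 kb. Its lead site (score 274.41) had 5 weak peaks between 557.5 and 2245 bp to its right, with scores from 8.73 to 14.71. A second strong site (score 151.93) lay 47.3 kb to the right of the lead. All TRb T3 peaks of this stretch were members.

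The stretches next in number were on chromosomes 8 and 5, with 13 members each, and they differed in shape. On chromosome 8, between 46496463 and 46696360, the 13 members lay within 76.5 kb and the highest score was 119.23, beside 53 at a peak 852 bp away. On chromosome 5, between 14025314 and 16786259, the gap in the TRb PTU list was 2761 kb long, and its 13 members had a median score of 10.19 and a highest of 47.56. Per 100 kb of gap, members numbered 6.50 in the first and 0.471 in the second. The chromosome 5 members covered 1295 kb of their gap, unevenly. No member lay between those starting at 14075724 and 14902303, or beyond 15368393 up to the right bound.

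A further 4 stretches tied with 11 members each, on chromosomes 4, 17, 10 and 13. The one on chromosome 4, between 55045494 and 55255376, had several strong sites, with scores of 134.77, 94.35, 92.96, 65.07 and 58.12. The one on chromosome 17, between 48180581 and 48548510, had a highest score of 94.35 and a median of 15.12. The stretch on chromosome 10, between 96712549 and 98301683, spanned 1589 kb. That on chromosome 13, between 5803712 and 6059259, was dense but weak, with 4.31 members per 100 kb and 1 score at or above the median of the list. The GFP PTU list had 0 peaks in any of the 7 stretches.

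**Figure D4:**
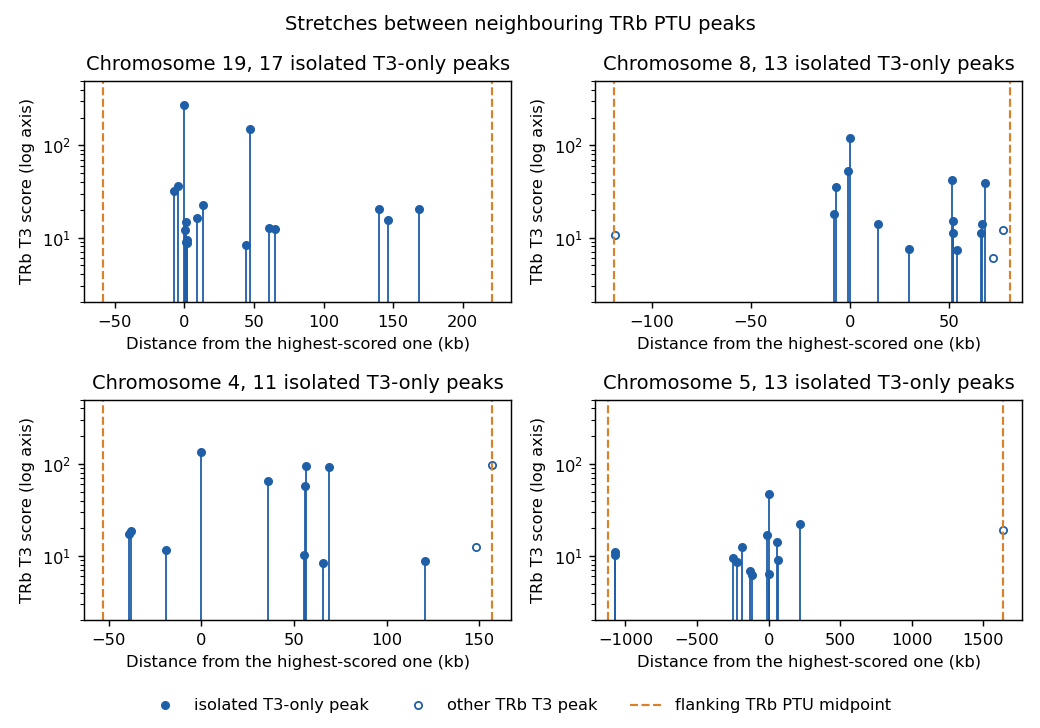
TRb T3 scores (vertical axes, log) of isolated T3-only peaks (filled) and other TRb T3 peaks (open) against the distance from the highest-scored one (horizontal axes, kb), in 4 stretches bounded by TRb PTU midpoints (dashed lines). The stretches on chromosomes 19, 8 and 4 are 199.9 to 279.0 kb long and have 17, 13 and 11 members. That on chromosome 5 is 2761 kb long and has 13.

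The TRb PTU peak nearest to a member was also called with T3 in a share near that of TRb PTU peaks in general. It was overlapped by a TRb T3 peak for 3871 members (57.4%, interval 56.3 to 58.6%), against 53.9% of all TRb PTU peaks on the same chromosomes. Members can share a nearest peak, so these are not separate observations. For isolated PTU-only peaks the nearest TRb T3 peak was overlapped in 64.6% of cases, against 61.5% of all TRb T3 peaks.

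Around members, peaks of both lists were sparse over longer ranges too. A median of 23 TRb PTU midpoints lay within 500 kb of a member, against 30 for solitary shared peaks and 39 for all TRb T3 peaks examined. Within 100 kb the medians for these 3 sets were 4, 7 and 11 TRb PTU midpoints, and 5, 6 and 10 other TRb T3 peaks. Isolated PTU-only peaks had medians of 30 TRb T3 midpoints within 500 kb and 5 within 100 kb, against 38 and 10 for all TRb PTU peaks examined. Solitary shared peaks of the TRb PTU list, defined in the same way, had 30 and 7. Other TRb PTU peaks within 100 kb numbered 8, 12 and 7 in these 3 sets. The rule favours sparse regions at 10 kb, and how far that carries to 100 or 500 kb was not tested.

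Members were found on all 19 chromosomes, in differing shares. Chromosome 13 had the highest, 442 of 2072 TRb T3 peaks (21.3%, interval 19.6 to 23.2%). Chromosome 11 had the lowest, 335 of 3090 (10.8%, interval 9.77 to 11.99%), next to chromosome 19 with 180 of 1632 (11.03%, interval 9.55 to 12.65%). The interval lay above the common 14.9% on 6 chromosomes and below it on 6. The share was lower where TRb PTU peaks were denser, with a Spearman coefficient of -0.89 over 19 chromosomes that share both libraries. Chromosome 11 had 33.7 TRb PTU peaks per Mb and chromosome 13 had 16.9. A lower share at higher density is part of what a distance rule does. The same comparison for isolated PTU-only peaks, against the density of TRb T3 peaks, gave -0.31, with shares from 16.1 to 21.7%. Chromosome 11 stood at 19.02% there, near the 19.1% of the list.

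**Figure D5:**
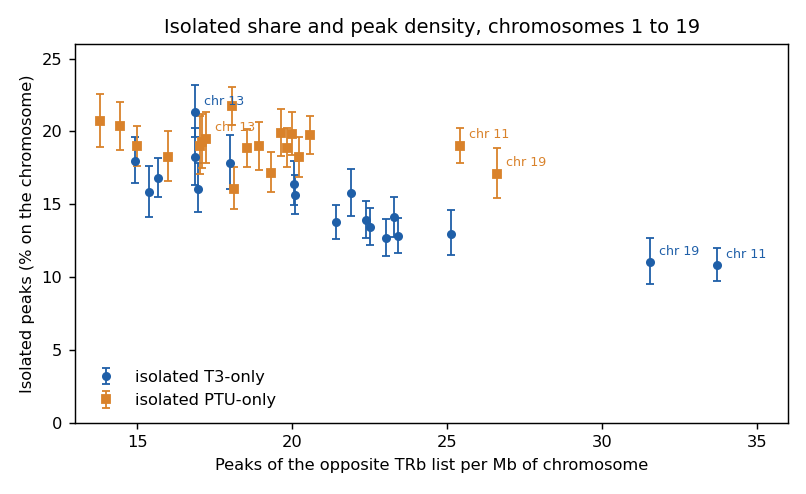
Share of isolated peaks on each of chromosomes 1 to 19 (vertical axis, percent) against the number of peaks of the opposite TRβ1 list per Mb (horizontal axis), for isolated T3-only (blue circles) and isolated PTU-only peaks (orange squares), with exact 95% binomial intervals as bars. Isolated T3-only shares run from 10.8 to 21.3% and are lower on denser chromosomes, while isolated PTU-only shares run from 16.1 to 21.7%.

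Within chromosomes, members were spread widely with some concentrations. Of 2127 windows of 1 Mb that held a TRb T3 peak, 1845 held a member and 63 held 10 or more. Both kinds of isolated peak occurred in 1550 of the 1845 windows with a member. Of the 544 windows with 5 or more members, 44 held 0 isolated PTU-only peaks. That is a smaller share than among all windows with a member. Over the whole lists examined, 14.9% of TRb T3 peaks were members and 19.1% of TRb PTU peaks were isolated PTU-only. Windows picked after their values were seen included chromosome 16 from 76000001 to 77000000, where 19 of 65 TRb T3 peaks were members and 0 of 25 TRb PTU peaks were isolated PTU-only. On chromosome 6 from 53000001 to 54000000 the counts were 16 of 43 and 0 of 16, and on chromosome 10 from 53000001 to 54000000 they were 18 of 31 and 1 of 13. Elsewhere both kinds lay in the same window. The window with most members, on chromosome 19 from 57000001 to 58000000, had 20 members and 6 isolated PTU-only peaks. On chromosome 4 from 11000001 to 12000000 there were 19 and 6.

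Few members lay near a peak called in livers with GFP alone. A GFP PTU midpoint lay within 10 kb of 1 member, at chr2:69193530-69193789 (score 31.91), where the midpoints were 3 bp apart. The same held for 159 of the 45238 TRb T3 peaks examined (0.351%), 20 of the 6206 solitary shared peaks and 31 of the 9775 isolated PTU-only peaks. The GFP list holds only 107 peaks and comes from PTU-fed mice without T3, so it gives no measure of background in T3-injected livers. The rule can also lower the count of members. A GFP PTU site that was called in TRb PTU too excludes the TRb T3 peaks around it. How far this went was not tested.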

How the data were processed

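ChIP-seq peak lists of 3 samples were used (GFP PTU, TRb PTU and TRb T3, 1 library each), and the inputs were not analysed here. The deposited lists give chromosome, start, end, name and a score per peak. As tools and build, the submitters' processing notes list Bowtie, SAMtools, MACS2 and mm9. Not given in the sources used here are versions, settings, the control library and the statistic behind the deposited score. Groups came from the sample titles.

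Members, comparison sets and distances were chosen with earlier results of these data known. Distances are between midpoints, and positions are printed 1-based. Score deciles were taken over peaks on chromosomes 1 to 19 outside the chromosome 4 block, which left out 168 TRb T3 peaks in the block and 686 on other sequences. Named by rule are the 12 highest-scored members (chromosome 18 aside), 3 on each side of the threshold, the 3 farthest and 3 widest, and the 4 fullest stretches with ties. Planned results on genes, gene lists, receptor elements and sequence were not run, since annotation and sequence of mm9 were not used here. No test was made between single libraries. Distance and overlap code was checked on the TRb T3 peaks with a made-up second list of shifted copies of them. Python 3.11.15, numpy 2.4.6, pandas 2.3.3, scipy 1.17.1 and matplotlib 3.10.9 were used.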

Additional observations from a re-analysis of the deposited data

How the results depend on the processing

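No paired analysis was possible because there was a single library per group. Alternatives on gene location and sequence elements were not run. The number of members (6739) became 4480 beyond 20 kb, 2238 beyond 50 kb and 2329 with TRb T3 scores at or above the median, all smaller by construction. It was 6664 to 9172 under the other distances and filters except 4730 with the median filter on both lists and 6256 with members within 1 kb joined. The share of members with a TRb T3 neighbour within 10 kb (38.8%) was 50.4% for members beyond 5 kb, 36.5% beyond 20 kb, 33.96% beyond 50 kb, 30.6% with the median filter on both lists, 24.7% with it on TRb T3 alone, 40.5% with equal numbers of peaks, 30.6% for neighbours within 5 kb, 79.1% within 50 kb and 30.9% for neighbours over 1 kb away. The median score (15.92) was 14.95 beyond 50 kb, 36.6 with the median filter on both lists and 36.4 with it on TRb T3 alone, and the median width (172 bp) was 212 and 210 bp with these filters, which remove low scores. The share with company in the top score decile (62.3%) was 42.4% with the median filter on both lists and 40.0% with it on TRb T3 alone. Removing peaks near GFP PTU sites took out 1 member. The joining of members, the block and the 1 kb limit were chosen after seeing the data. Unknown depth limits every count.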

Other observations

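Scores of members took few distinct values. The 6739 members had 1604 different scores, and 3868 of them (57.4%) carried a score that at least 10 members shared, most often 9.29 (159 members). Over all TRb T3 peaks examined, 63.2% carried a score shared by at least 10 peaks. That bound is easier to reach in the longer list, so the 2 shares are not directly comparable. Ranks near such scores are ties, and which of the tied peaks fall on either side of a decile bound follows their order in the list. Narrow peaks were more frequent among members than among solitary shared peaks, with 7.61 and 2.43% at the least width of the list and 2.60 and 8.49% at 400 bp or wider.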
